A study of Homo sapiens with 6 samples.

Results

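The DNA replication and mitosis genes examined here were 40 genes that cells switch on as they pass from G1 through S phase and division, read as 20 replication genes and 20 mitosis genes. They were chosen by gene symbol from the 58735 genes of the count table, and all 40 had enough counts to be tested. RNA-seq was performed on A549 cells, a human lung adenocarcinoma line grown in RPMI1640 with fetal bovine serum. One group (IL17D, 3 libraries) overexpressed IL17D, a secreted cytokine of the IL-17 family, and the other (control, 3 libraries) carried the empty vector. Both groups were therefore lentivirally transduced cells: the study's methods give a vector with the human PGK promoter and an IRES-GFP cassette, into which the IL17D reading frame from H82 cells, a small cell lung cancer line, was cloned. The labels do not say whether the 3 libraries of a group came from separate cultures or transductions, so that p-values measure only the spread between these libraries, which may be technical. The study asked what IL17D overexpression does to lung cancer cells, and these genes report on the part of that question that concerns the cell cycle.

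In late G1, cyclin E with CDK2 and the E2F transcription factors turn on the genes that load and fire the replicative helicase, copy DNA and make deoxynucleotides. By G2, cyclin A, cyclin B and CDK1 are high, as are the kinases, motors and checkpoint proteins of the mitotic spindle. The anaphase-promoting complex (APC/C) with CDC20 and UBE2C then ends mitosis by marking cyclin B and securin for destruction. Most of these genes are transcribed mainly in a part of the cycle. The abundance of their transcripts in a bulk culture thus follows both the share of cells in that part and the RNA per cell. Fewer cells in a phase and less RNA per cell cannot be told apart in these libraries.

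The libraries held 14319398 to 16521021 counts, and a count of 0 in a library allowed up to 3 counts, or 0.182 to 0.210 CPM (counts relative to the TMM-scaled library total), which covers counting error only. IL17D had 24, 18 and 34 counts in the control libraries and 31274, 32155 and 26772 counts in the IL17D libraries, so the labels and the overexpressed gene match. Of 6 epithelial markers, KRT8 (7201 to 7779 CPM), KRT18, CLDN1 and CDH1 were expressed, whereas EPCAM had 9 to 21 counts and KRT19 had 3 to 11 counts in each library. CDH1, which encodes E-cadherin, fell by 0.28 on the log2 scale (edgeR's quasi-likelihood test, Benjamini-Hochberg adjusted p = 0.031). The other 4 epithelial markers tested did not pass, with log2 fold changes of 0.13 for CLDN1 (adjusted p = 0.14 by edgeR), -0.06 for KRT8 (0.27), -0.01 for KRT18 (0.89) and -0.12 for EPCAM (0.95). Of 11 markers of other cell types, COL1A1, a fibroblast collagen gene, was at 23.3 CPM in control and 21.0 CPM in IL17D libraries, the other 10 had at most 20 counts in any library, and the leukocyte markers PTPRC and CD3E had 0 counts in all 6.

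RRM2, the small subunit gene of ribonucleotide reductase, was the single gene of the 40 that passed the test. It was higher in IL17D-overexpressing cells by 17% (95% confidence interval 10.4% to 24.0%). The other 19 replication genes and all 20 mitosis genes did not pass an adjusted p of 0.05, and RRM2 was also the 1 gene of the 40 called by DESeq2's Wald test and by limma voom. Over all 15754 tested genes, 1.58% passed this threshold, 0.673% upward and 0.908% downward. The 10656 tested genes whose control level lay within the range of the 40 (6.27 to 862 CPM) included 93 that passed upward and 122 that passed downward. The measurements were narrow: the 95% confidence intervals reached a median of 0.09 to either side on the log2 scale. For 33 of the 40 genes the whole interval lay within 0.2 of 0, as it did for 4842 of the 10656 genes in that range. Those 10656 genes were not matched to the 40 in level, and their intervals were wider, with a median of 0.14 to either side.

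**Figure D1:**
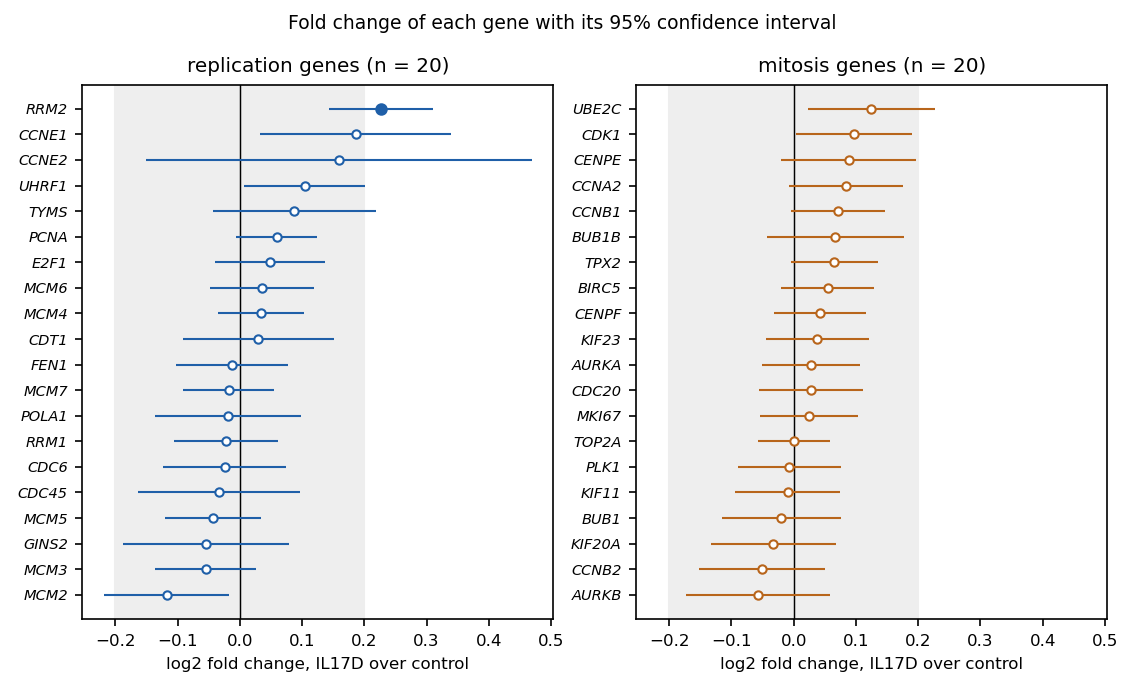
log2 fold change of each replication gene (left, blue) and each mitosis gene (right, orange) in IL17D over control libraries, with 95% confidence intervals from edgeR. The filled circle marks adjusted p under 0.05, which RRM2 alone reaches at 0.23, the grey band spans a log2 fold change of 0.2 on either side of 0, and the open circles run from -0.12 for MCM2 to 0.19 for CCNE1.

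Among the replication genes, 1 was called upward and 0 downward, 10 had a fold change above 0 and 10 below, and the median log2 fold change was 0.01 beside 0.00 over all tested genes. At an unadjusted p under 0.05, 3 replication genes were higher (RRM2, CCNE1 and UHRF1) and 1 was lower (MCM2), where 5.59% of all tested genes were higher and 5.99% lower. At an unadjusted p under 0.05 together with a log2 fold change over 0.2 in size, RRM2 was the 1 replication gene left, and 6% of all tested genes met that rule. The IL17D libraries lay wholly above the control libraries for 5 replication genes (RRM2, CCNE1, PCNA, E2F1 and MCM4) and wholly below for MCM3, and 15.8% of all tested genes were separated in this way, 7.48% upward and 8.31% downward.

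The mitosis genes gave 0 calls in either direction by edgeR's quasi-likelihood test, by DESeq2's Wald test and by limma voom. At an unadjusted p under 0.05, edgeR and limma voom each found 2 of them and DESeq2 found 1. In edgeR's test these 2 were UBE2C and CDK1, both higher, where 5.59% of all tested genes were higher and 5.99% lower. Fold changes were above 0 for 14 mitosis genes and below 0 for 6, with a median log2 fold change of 0.03, where 49.9% of all tested genes were above 0. Between replicates, the median deviation of these 20 genes had an SD of 0.029 on the log2 scale, about as large as that median. With total counts in place of TMM scaling, the split was 13 and 7 because TOP2A, at 0.00, turned sign. The libraries of the groups were separated for 3 mitosis genes, CCNB1, TPX2 and BIRC5, all higher in IL17D libraries. Of all tested genes, 15.8% were separated, 7.48% upward and 8.31% downward. For 19 of the 20 mitosis genes the 95% confidence interval lay within 0.2 of 0 on the log2 scale, and UBE2C was the exception, with an upper bound of 0.23.

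Deoxynucleotide supply held the gene that rose. Ribonucleotide reductase reduces ribonucleotides to deoxynucleotides and is built from the large subunit RRM1, which is stable through the cycle, and the small subunit RRM2, which is made in S phase and destroyed in mitosis and G1. RRM2 (ENSG00000171848, chr2:10120698-10131419, plus strand, GRCh38) was at 149, 154 and 163 CPM in control replicates 1, 2 and 3 and at 178, 188 and 179 CPM in IL17D replicates 1, 2 and 3. Every IL17D library lay above every control library. The means were 155 ± 6.66 and 182 ± 5.56 CPM (SD, n = 3). This was 0.23 on the log2 scale, with a standard error of 0.041, and edgeR's quasi-likelihood test gave a Benjamini-Hochberg adjusted p of 0.00099. RRM1 was at 188, 182 and 199 CPM in control and 181, 196 and 183 CPM in IL17D libraries, and the groups overlapped. Its log2 fold change was -0.02 with a 95% confidence interval of -0.11 to 0.06, which lies wholly below the interval of 0.14 to 0.31 for RRM2. Per kilobase of exon (RPKM), the ratio of the RRM2 level to the RRM1 level was 0.643 ± 0.020 in control and 0.764 ± 0.0086 in IL17D libraries (SD, n = 3). The size of this ratio depends on the annotated exon lengths, but its relative change between the groups does not.

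TYMS encodes thymidylate synthase, which makes dTMP. It was at 42.1, 42.6 and 40.04 CPM in control and 45.2, 42.1 and 45.2 CPM in IL17D libraries, a log2 fold change of 0.09 with a 95% confidence interval of -0.04 to 0.22. The groups overlapped, and 39.1% of the exon bases of TYMS also lie in exons of ENOSF1 on the opposite strand, so that reads of both genes cannot be told apart unless the counting used strand, which is not given in the sources used here. RRM2 shares 20.2% of its exon bases with AC007240.1 on the same strand, and AC007240.1 held 163 counts over the 6 libraries where RRM2 held 15851. How reads that fall in both genes were counted is not given in the sources used here, so these counts do not show whether reads of the shared bases were kept.

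**Figure D2:**
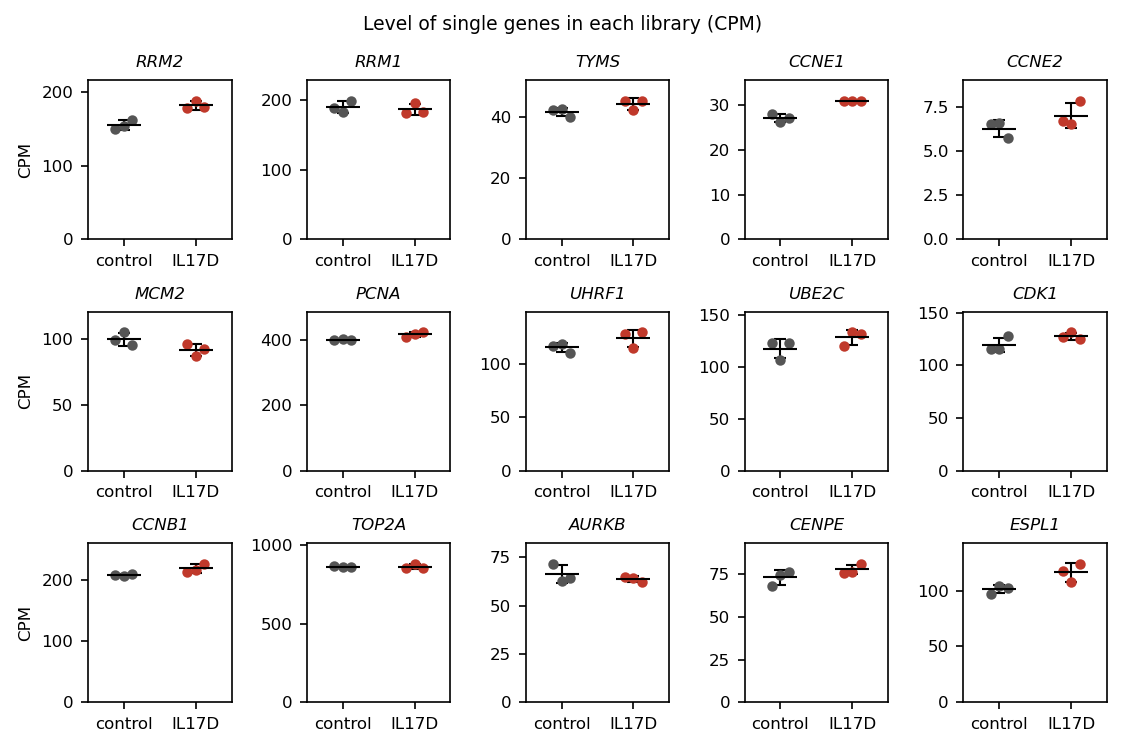
CPM of 15 genes in each of the 3 control (grey) and 3 IL17D (red) libraries, with the mean and SD of each group as a bar, each panel starting at 0. RRM2 is separated between the groups (149 to 163 against 178 to 188 CPM), as is ESPL1 from the longer mitosis list (97.2 to 104 against 108 to 124 CPM), while TOP2A, RRM1 and AURKB overlap.

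Sequence before the start sites was examined because replication and mitosis genes are known to carry different elements there: E2F sites before S phase genes, and CCAAT boxes with the cell cycle genes homology region (CHR) before G2 and M phase genes. The 250 bases before each RefSeq start site (GRCh38.p14) were searched on both strands for TTTCCCGC, TTTCGCGC, TTTGCCGC and TTTGGCGC as E2F matches, TTTGAA as a CHR match and CCAAT. Overlapping matches on opposite strands were counted separately. RefSeq entries were found for 17 replication genes (25 windows) and 16 mitosis genes (18 windows). Windows of the same gene can overlap, and some lie wholly in annotated exons, as for CDT1, FEN1, MCM2 and PLK1 (250 of 250 bases). E2F letters were in 11 replication windows (44%) and 1 mitosis window (5.56%), beside 2.79% of all 35116 windows. CHR letters were in 1 replication window (4%) and 10 mitosis windows (55.6%), beside 13.3% of all windows. CCAAT was in 18 replication windows (72%) and 16 mitosis windows (88.9%), beside 32% of all windows. Counted by gene, E2F letters were found for 10 of 17 replication and 1 of 16 mitosis genes, CHR letters for 1 and 9, and CCAAT for 12 and 14. The members were listed for their functions and not for their start sites, and these matches are letters in a window and not shown to be bound.

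The 2 windows of RRM2 held neither E2F nor CHR letters. They hold 1 and 3 CCAAT matches, and 240 and 250 of their 250 bases lie in exons annotated by GENCODE, so only the letters around the 3 matches of the second window are printed, as the gene that rose. They lie on the plus strand of GRCh38.p14 at chr2:10122611-10122625, chr2:10122641-10122655 and chr2:10122668-10122682, in capitals, and all 3 are followed by the same 5 bases.
RRM2 first: cgcagCCAATgggaa
RRM2 second: cacagCCAATgggaa
RRM2 last: caaagCCAATgggaa

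The window of RRM1, its partner subunit, is shown for comparison. It lies at chr11:4094435-4094684 (plus strand, GRCh38.p14), holds no annotated exon base, and has 1 CCAAT match and 1 CHR match on the opposite strand, in capitals.
RRM1: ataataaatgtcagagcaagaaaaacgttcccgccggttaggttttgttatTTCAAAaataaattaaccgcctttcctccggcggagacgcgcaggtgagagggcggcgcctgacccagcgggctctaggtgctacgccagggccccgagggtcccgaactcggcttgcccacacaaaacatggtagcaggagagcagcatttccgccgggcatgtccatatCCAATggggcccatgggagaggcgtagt

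S phase entry genes were all above 0 in fold change, and 0 of 3 passed the adjusted threshold by edgeR's test, with CCNE1 the 1 gene at an unadjusted p under 0.05. CCNE1 (chr19:29811898-29824308) encodes cyclin E1, the CDK2 partner that fires S phase. It was at 27.9, 26.3 and 27.0 CPM in control and 30.8, 30.9 and 30.8 CPM in IL17D libraries, without overlap. Its log2 fold change was 0.19 (standard error 0.076, adjusted p = 0.30 by edgeR with Benjamini-Hochberg adjustment). CCNE2, which encodes the related cyclin E2, was the lowest of the 40 genes per length, at 1.51 ± 0.16 RPKM (SD, n = 6). It was at 6.52, 6.57 and 5.72 CPM in control and 6.69, 6.51 and 7.85 CPM in IL17D libraries, a log2 fold change of 0.16 with a 95% confidence interval of -0.15 to 0.47, the widest of the 40. Without IL17D replicate 3 the CCNE2 value was 0.08, and without control replicate 3 it was 0.10. The groups overlapped, and 37.0% of CCNE2 exon bases lie in exons of INTS8 on the opposite strand, which held 5351 counts to the 622 of CCNE2. E2F1, the transcription factor that drives many of these genes, was separated between groups (110.4 to 111 against 113 to 116 CPM), with a log2 fold change of 0.05 (adjusted p = 0.75).

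The replicative helicase is a ring of the 6 proteins MCM2 to MCM7. The 6 genes had log2 fold changes from -0.12 to 0.04, 2 above 0 and 4 below, and 0 of 6 passed the adjusted threshold by edgeR, with MCM2 the 1 gene at an unadjusted p under 0.05. MCM2 (chr3:127598223-127622436) was at 98.8, 105 and 95.1 CPM in control and 95.9, 87.2 and 92.2 CPM in IL17D libraries. The ranges overlapped, and the log2 fold change was -0.12 (standard error 0.050, adjusted p = 0.33 by edgeR). Of MCM2 exon bases, 22.7% lie in exons of AC023593.1 on the opposite strand, which held 21 counts to the 8982 of MCM2. MCM3 was separated downward (149.7 to 153 against 145 to 146 CPM), with a log2 fold change of -0.05. MCM4 was separated upward (292 to 295 against 299 to 300.4 CPM), with a log2 fold change of 0.03. MCM6 had the fold change nearest the upper end, 0.04, and overlapped. The window of MCM6 is printed as an example of a replication gene with E2F letters. It has 4 E2F matches, in 2 stretches that each read as a match on both strands, and 2 CCAAT matches on the opposite strand. The window is chr2:135876444-135876693 (minus strand, GRCh38.p14), it holds no annotated exon base, and matches are in capitals.
MCM6: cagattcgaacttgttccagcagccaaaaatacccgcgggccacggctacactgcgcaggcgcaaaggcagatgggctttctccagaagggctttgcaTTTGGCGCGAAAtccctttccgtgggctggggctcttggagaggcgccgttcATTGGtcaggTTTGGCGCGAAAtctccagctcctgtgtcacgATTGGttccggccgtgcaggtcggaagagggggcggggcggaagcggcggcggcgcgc

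The genes that load and activate this helicase, CDC6, CDT1, CDC45 and GINS2, had log2 fold changes from -0.05 to 0.03, with 1 above 0 and 3 below. Their confidence intervals reached from -0.19 to 0.15, and their groups overlapped. At the fork, PCNA, the sliding clamp of the polymerases, was the most abundant of the 40 genes per length, at 277 ± 7.0 RPKM (SD, n = 6). PCNA was at 397, 401 and 399.6 CPM in control and 409, 418 and 422 CPM in IL17D libraries. The groups were separated by a small step, 0.06 in log2 fold change (standard error 0.032, adjusted p = 0.49 by edgeR). FEN1, the flap endonuclease of Okazaki fragments, and POLA1, the catalytic subunit of the priming polymerase, had log2 fold changes of -0.01 and -0.02, with overlapping groups. UHRF1, which guides DNA methyltransferase to newly copied DNA, was at 117, 119 and 110.4 CPM in control and 128, 115 and 129.6 CPM in IL17D libraries. IL17D replicate 2 lay within the control range, and the log2 fold change was 0.10 (standard error 0.048, adjusted p = 0.38 by edgeR). Of the 31-base stretches of UHRF1 transcripts, 27.3% also occur in other genes, and 23.1% occur in AC112777.1. AC112777.1 held 883 counts to the 11237 of UHRF1.

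Of the mitotic cyclins and their kinase, CCNA2, CCNB1 and CDK1 had fold changes above 0 and CCNB2 below. CDK1 (chr10:60778331-60794852), the kinase that drives entry into mitosis, was at 115, 115 and 127 CPM in control and 127, 131 and 125 CPM in IL17D libraries. Control replicate 3 lay within the IL17D range, and the log2 fold change was 0.10 (standard error 0.046, adjusted p = 0.40 by edgeR). CCNB1, cyclin B1, was at 208, 206 and 209.8 CPM in control and 213, 216 and 226 CPM in IL17D libraries, separated by a log2 fold change of 0.07 (adjusted p = 0.48). CCNB2, cyclin B2, overlapped with a log2 fold change of -0.05. The first of the 2 windows of CDK1 is printed as an example of a mitosis gene with a CHR and a CCAAT match. The second, chr10:60778228-60778477, holds 1 E2F, 2 CHR and 2 CCAAT matches and is the 1 mitosis window with E2F letters. Of its 250 bases, 147 lie in annotated exons. The printed window is chr10:60778081-60778330 (plus strand, GRCh38.p14), with matches in capitals and no annotated exon base.
CDK1: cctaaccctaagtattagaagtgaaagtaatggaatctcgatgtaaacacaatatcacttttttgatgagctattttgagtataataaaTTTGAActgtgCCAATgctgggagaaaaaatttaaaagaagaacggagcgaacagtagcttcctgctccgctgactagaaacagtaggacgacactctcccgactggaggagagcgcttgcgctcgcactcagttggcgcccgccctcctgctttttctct

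The checkpoint and APC/C genes include UBE2C, which had the largest fold change of the mitosis genes with all libraries in the fit. UBE2C (chr20:45812576-45816957), the ubiquitin-conjugating enzyme of the APC/C, was at 123, 107 and 123 CPM in control and 120.2, 133 and 131 CPM in IL17D libraries. IL17D replicate 1 lay within the control range, and control replicate 2 was the lowest of the 6. Its log2 fold change was 0.12 (standard error 0.050, adjusted p = 0.29 by edgeR). Without control replicate 2 it was 0.06, below that of CENPE in the same fit (0.10). CDC20, the APC/C activator of anaphase, and the spindle checkpoint kinases BUB1 and BUB1B had log2 fold changes of 0.03, -0.02 and 0.07, with overlapping groups.

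Of the Polo and Aurora kinases with survivin, PLK1 and AURKA had log2 fold changes of -0.01 and 0.03. AURKB, the kinase of the chromosomal passenger complex, was at 71.6, 62.6 and 64.5 CPM in control and 64.6, 64.3 and 62.0 CPM in IL17D libraries. Its log2 fold change of -0.06 was the lowest of the mitosis genes and rested on control replicate 1: without that library it was 0.00. BIRC5, survivin, which sits in the same complex, was separated between the groups (202 to 211 against 212 to 215 CPM), with a log2 fold change of 0.05 (adjusted p = 0.64).

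The spindle motors and their partners KIF11, KIF20A, KIF23, CENPE, CENPF and TPX2 had log2 fold changes from -0.03 to 0.09, 4 above 0 and 2 below. TPX2, which activates Aurora A on the spindle, was at 316, 314 and 334 CPM in control and within 1 CPM of 336 in each IL17D library, a log2 fold change of 0.06. CENPE, a kinetochore motor, was the lowest mitosis gene per length, at 7.99 ± 0.43 RPKM (SD, n = 6). It was at 68.4, 74.7 and 76.4 CPM in control and 76.0, 76.3 and 81.1 CPM in IL17D libraries, which overlapped, and its log2 fold change was 0.09 (standard error 0.053, adjusted p = 0.57 by edgeR). Without control replicate 1 the CENPE log2 fold change was 0.04.

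The chromosome proteins TOP2A and MKI67 are the usual histological marks of dividing cells. TOP2A, topoisomerase II alpha, was the highest mitosis gene per length, at 134 ± 1.55 RPKM (SD, n = 6). It was at 864, 862 and 861 CPM in control and 856, 880.0 and 850.3 CPM in IL17D libraries. The log2 fold change of TOP2A was 0.00 with a 95% confidence interval of -0.06 to 0.06. MKI67, which encodes Ki-67, was at 475, 525 and 558 CPM in control and 529.8, 538 and 516 CPM in IL17D libraries, so that all 3 IL17D values lay inside the control range. The MKI67 log2 fold change was 0.02 with a 95% confidence interval of -0.05 to 0.10. Its window, chr10:128126424-128126673 (minus strand, GRCh38.p14), is shown because it carries 2 CHR and 2 CCAAT matches close to the start site, in capitals, where the CHR nearest the start runs into a CCAAT match read on the opposite strand. It holds no annotated exon base.
MKI67: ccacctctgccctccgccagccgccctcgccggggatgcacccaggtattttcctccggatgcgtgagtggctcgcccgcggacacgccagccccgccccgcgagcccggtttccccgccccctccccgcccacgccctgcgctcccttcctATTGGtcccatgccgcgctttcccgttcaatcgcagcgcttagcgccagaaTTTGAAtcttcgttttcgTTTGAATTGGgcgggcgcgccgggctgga

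**Figure D3:**
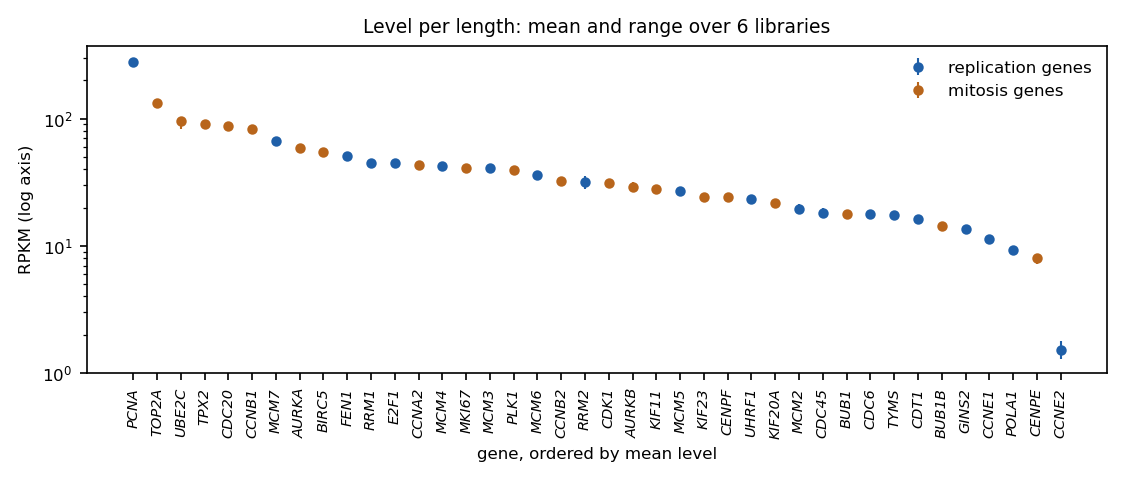
Mean level per length (RPKM, log axis) of the 40 genes over all 6 libraries, with the lowest and highest library as a bar, in order of the mean. PCNA (277 RPKM) and TOP2A (134 RPKM) stand clear of the next gene, UBE2C to CDC20 overlap their neighbours, and CCNE2 (1.51 RPKM) is the lowest.

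Per length, the 40 genes spanned 1.51 to 277 RPKM. The length counts all annotated exons of a gene, used in these cells or not, so the order of genes depends on the annotation. PCNA and TOP2A stood apart from each other and from the next gene, whereas each of UBE2C, TPX2 and CDC20 overlapped the gene that followed it, down to CCNB1 (means of 95.6, 91.2, 88.2 and 83.4 RPKM). The 4 lowest, CCNE1, POLA1, CENPE and CCNE2, did not overlap each other. RRM2 had a mean of 29.2 RPKM in control libraries, below CDK1 (30.3 RPKM) and CCNB2 (33.0 RPKM), and of 34.2 RPKM in IL17D libraries, above CDK1 (32.5 RPKM) and CCNB2 (31.8 RPKM). In control libraries RRM2 (28.1 to 30.5 RPKM) overlapped CDK1, whose lowest library was at 29.3 RPKM.

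The libraries differed in how the mitosis genes stood as a group. Control replicate 2 had 3 of the 20 mitosis genes above the mean of the control libraries, and control replicate 3 had 16. The replication genes did not follow: 11 and 7 of 20 were above the control mean in the same libraries. Within the IL17D group, 9 to 11 of the 20 mitosis genes were above the group mean in each library. Over all tested genes these shares were 49.9% to 51.2%.

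**Figure D4:**
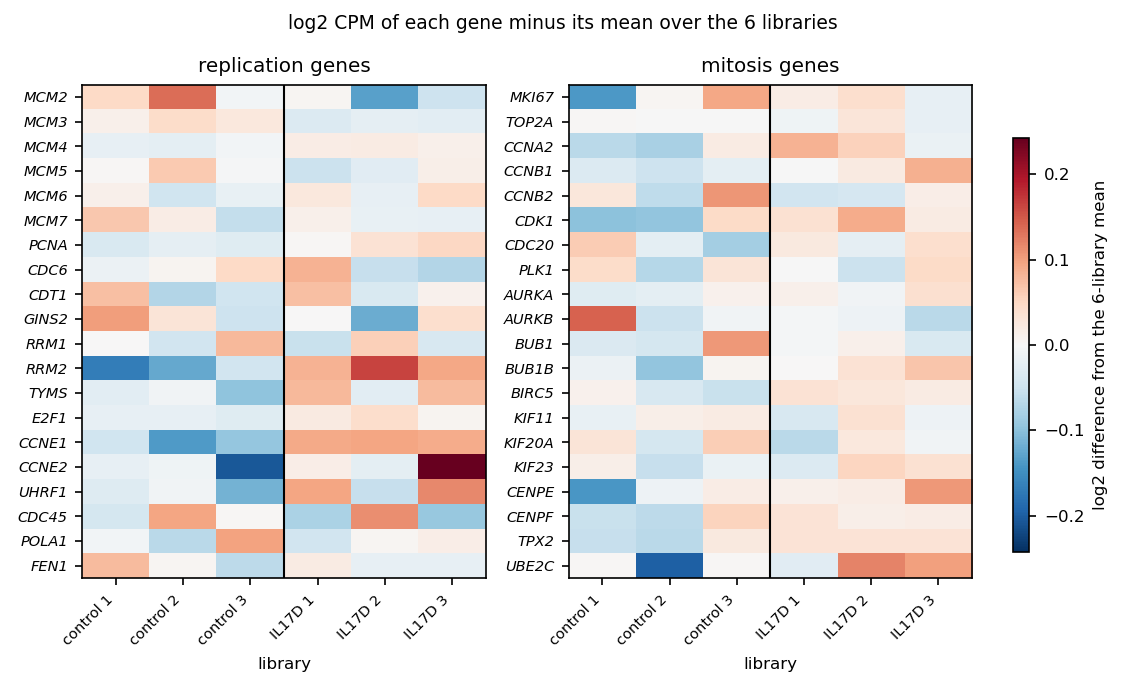
log2 CPM of each replication gene (left) and mitosis gene (right) minus its mean over the 6 libraries, with red above and blue below that mean and a line between the groups. RRM2 and CCNE1 are blue in the control libraries and red in the IL17D libraries, and control replicate 2 has 2 of 20 mitosis genes above the mean while control replicate 3 has 14.

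Summed over the list, the replication genes came to 2668 ± 13.4 CPM in control and 2710.4 ± 6.70 CPM in IL17D libraries (SD, n = 3), 1.57% higher. Without RRM2 the sums were 2513 ± 20.1 and 2529 ± 11.8 CPM, 0.62% apart and overlapping. The mitosis genes summed to 4072 ± 87.9 and 4157 ± 28.4 CPM (SD, n = 3), 2.08% higher in IL17D libraries, with control replicate 3 at 4172 CPM inside the IL17D range of 4131 to 4187 CPM. The sums are descriptions, and the most abundant genes weigh most in them. For the further genes of each pathway, the 48 other replication genes were 0.53% lower in sum in IL17D libraries, with overlap, and the 67 other mitosis genes were 2.14% higher (6385 to 6481 against 6549 to 6587 CPM).

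**Figure D5:**
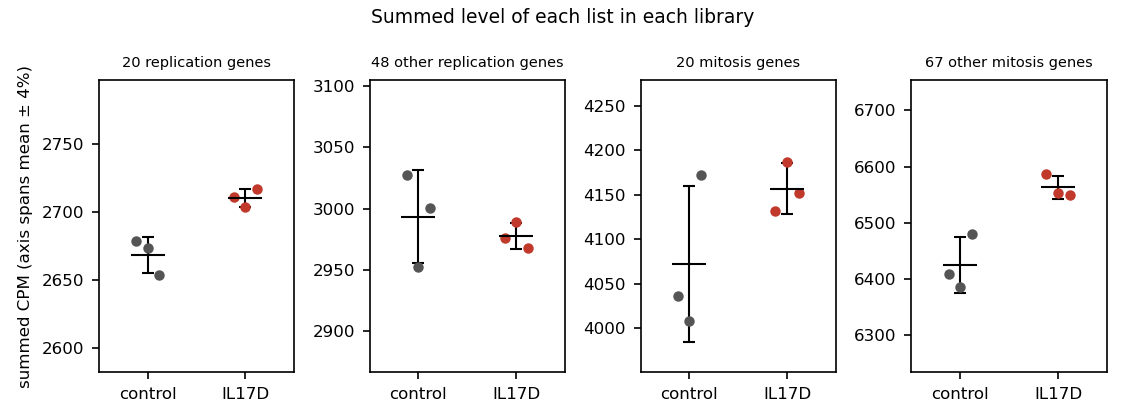
Summed CPM of 4 gene lists in each control (grey) and IL17D (red) library, with the mean and SD of each group as a bar. Each axis is cut to a span of 4% on either side of its mean and does not start at 0, and control replicate 3 (4172 CPM) lies among the IL17D libraries for the 20 mitosis genes.

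The pathway around these 40 genes was read from 5 further lists of 167 genes, 163 of them tested. Over all tested genes 1.58% passed the adjusted threshold, and of these 163 genes 1 passed upward and 0 downward. That gene was ESPL1 (chr12:53268299-53293643), which encodes separase, the protease that cuts cohesin at anaphase. ESPL1 was at 97.2, 104 and 102 CPM in control and 117, 108 and 124 CPM in IL17D libraries, without overlap, and its log2 fold change was 0.20 (standard error 0.049, adjusted p = 0.023 by edgeR). ESPL1 no longer passed when control replicate 1 (adjusted p = 0.14), IL17D replicate 1 (0.11) or IL17D replicate 3 (0.27) was left out. The 67 other mitosis genes had 43 fold changes above 0 and 24 below, with a median of 0.03, where 49.9% of all tested genes were above 0. At an unadjusted p under 0.05, 7 were higher and 0 lower, where 5.59% of all tested genes were higher and 5.99% lower.

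Of the 48 other replication genes (origin recognition, polymerases, clamp loader, ligase), 0 passed by edgeR, DESeq2 or limma voom. At an unadjusted p under 0.05 by edgeR, 1 was higher and 4 were lower, led by POLD2, a subunit of the lagging strand polymerase (log2 fold change -0.10, adjusted p = 0.29). Among all tested genes, 5.59% were higher and 5.99% lower at that threshold. Of the 18 transcription factors of the cycle (E2F, RB, DREAM complex, FOXM1), 0 passed by these 3 tools and 0 reached an unadjusted p under 0.05 in edgeR, and the smallest p was that of the RB relative RBL2 (log2 fold change -0.12, adjusted p = 0.48). Of 16 G1 cyclins, CDKs and inhibitors, 12 were tested and 0 passed by edgeR, DESeq2 or limma voom. The one below an unadjusted p of 0.05 by edgeR was FBXW7, part of the ligase that degrades cyclin E (log2 fold change 0.21, adjusted p = 0.38). CDKN2A and CDKN2B, known to be deleted in A549 cells, and CCND2 had 0 counts in all libraries. Of 18 APC/C subunits and mitotic brakes, 0 passed by these 3 tools. FBXO5, which encodes the APC/C inhibitor EMI1, was the one below an unadjusted p of 0.05 by edgeR, at 25.0, 25.6 and 25.3 CPM in control and 28.3, 35.0 and 28.7 CPM in IL17D libraries (log2 fold change 0.28, adjusted p = 0.099). Without IL17D replicate 2, the FBXO5 log2 fold change was 0.17 and its unadjusted p in edgeR's test was above 0.05.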

How the data were processed

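Total RNA from A549 cells was sequenced by the study, and the authors deposited 1 table of raw counts per gene for 6 libraries, without normalization. All 58735 genes have the coordinates and exon lengths of GENCODE release 29 (Ensembl 94, GRCh38). The submitters' processing notes name Bowtie2 and hg38. The counting tool and its strand setting are not given in the sources used here, and the labels and the methods name different Illumina sequencers.

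Groups came from the labels. Genes were kept by filterByExpr, scaled by TMM and compared without covariates by edgeR's quasi-likelihood test (edgeR 4.0.16, R 4.3.3). p-values were adjusted over the 15754 tested genes by the Benjamini-Hochberg method, and an adjusted p under 0.05 was called. Tests are two-sided. RPKM are TMM-scaled CPM per kilobase of exon, with all annotated exons of a gene merged. DESeq2 1.42.0 and limma 3.58.1 were alternatives, as were other scalings and filters, a block for the replicate number and fits without 1 library. Figures used Python 3.11.15 and matplotlib 3.10.9. The steps were tested on simulated data. Replicate numbers did not pair the libraries. The members, the further lists and the naming rule (an unadjusted p under 0.05, the 3 smallest p, and the extremes of level and fold change in each list) were chosen with earlier results of these data known. The other genes with groups that did not overlap, and CCNA2, RRM1, TYMS and MKI67, were added after their values were seen.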

Additional observations from a re-analysis of the deposited data

How the results depend on the processing

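RRM2 was called in all 13 alternatives, with log2 fold changes of 0.20 to 0.26 and adjusted p of 4.3e-05 to 0.013. It was the only member called in each of them, so the count of replication genes called was 1 and of mitosis genes 0 throughout. The count of mitosis genes at an unadjusted p under 0.05, 2 with all libraries, was 7 without control replicate 3, 1 without control replicate 1, and 0 without control replicate 2 or IL17D replicate 2.

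The number of genes called, 249, ranged from 145 (without IL17D replicate 3) to 267 when 1 library was left out, and was 155 without IL17D replicate 1. Genes past an unadjusted p of 0.05 and a log2 fold change of 0.2, 946, were 628 by DESeq2's Wald test and 1446 with all genes of at least 1 count, and 918 to 1010 with 1 library left out. The median log2 fold change of replication genes ranged from 0.000222 to 0.0293 with 1 library left out, and that of mitosis genes from 0.0235 to 0.0433. The pathway lists had 0 to 1 genes called, 0 without control replicate 1, IL17D replicate 1 or IL17D replicate 3. TOP2A turned sign with total counts (-0.00299), with all genes of at least 1 count (-0.00209), with the replicate block (-0.000122) and with libraries left out (-0.0146 to 0.0113), and AURKB without control replicate 1 (0.00481, range -0.0956 to 0.00481). Other members also turned sign with 1 library left out: FEN1, MCM7, MKI67 and PLK1 without control replicate 1, CDC45 without control replicate 2, POLA1, RRM1, BUB1, CDC20 and PLK1 without control replicate 3, POLA1 and KIF11 without IL17D replicate 1, PLK1 without IL17D replicate 2, and CDC45 and CDC6 without IL17D replicate 3. The replication split of 10 above and 10 below 0 reached 12 and 8, and the mitosis split ranged from 13 and 7 to 15 and 5. An unadjusted p under 0.05 was lost by CCNE1 without control replicate 2, by MCM2 without control replicate 2 or IL17D replicate 2, by UHRF1 without control replicate 3, IL17D replicate 1 or IL17D replicate 3, by CDK1 without control replicate 1 or 2 or IL17D replicate 1 or 2, and by UBE2C without control replicate 2, IL17D replicate 2 or IL17D replicate 3. With all libraries in DESeq2's Wald test, the unadjusted p of UHRF1 (0.059) and of CDK1 (0.063) was also above 0.05. The cause was not tested.

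Same-numbered libraries did not deviate together over all tested genes (correlations of 0.00997, -0.0119 and -0.0151). Over the 40 genes the same pairs gave 0.127, -0.276 and -0.379. The largest correlation between the groups over the 40 genes, 0.546, was that of control replicate 3 with IL17D replicate 2. With the replicate number as a block, 272 genes were called, RRM2 among them, and no call of a member changed. Leaving out a library leaves 2 in its group. With 3 libraries a group, the 95% confidence intervals of the 40 genes reached a median of 0.09 to either side on the log2 scale, and log2 fold changes as large as 0.19 (CCNE1) and -0.12 (MCM2) did not pass the adjusted threshold.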
